A study of Mus musculus with 6 samples.

Results

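Heat shock proteins and folding chaperones bind proteins that are not yet folded, or no longer folded, and help them reach or regain their shape. Genes of this class were collected by symbol: HSP families (Hsp with a number or a letter from a to h), the Dnaja, Dnajb and Dnajc J-proteins, the Cct subunits of the TRiC chaperonin, the BAG factors Bag1 to Bag6, and the disulfide isomerases Pdia3 to Pdia6. The rule found 74 of 11138 named genes. By textbook location they were sorted into 45 cytosolic, 9 mitochondrial and 15 reticulum members, with 5 left over (Dnajc5, Dnajc5b, Dnajc8, Hspb11 and the pseudogene Hsp25-ps1). Hsp90ab1 was not analysed here.

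RNA came from endothelial cells sorted from mice, and 6 arrays each set RNA of smoke-exposed mice against RNA of control mice. The exposed mice had breathed tobacco smoke for 6 weeks on 3 arrays and for 1 week on 3 arrays. Of the 6-week arrays, 1 had a 1-week control, 1 was its dye reversal and 1 had a 6-week control. Of the 1-week arrays, 1 was a dye reversal (replicate 1) and 2 were not (replicates 2 and 3), and the labels give no age for their control. The labels state no mouse strain, tissue of origin, sort marker or smoke dose, and do not say whether arrays came from separate or pooled animals, so p-values refer to the spread between arrays. Control RNA may be common to several arrays, and the RNA of the 1-week dye reversal may be that of another 1-week array.

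Chaperones divide by compartment. In the cytosol, HSP70 proteins work with J-proteins, which deliver substrates and trigger ATP hydrolysis, and with BAG and HSP110 proteins, which exchange the nucleotide; heat shock factor 1 drives many of these genes after protein damage. The endoplasmic reticulum has its own HSP70 (Hspa5, or BiP), HSP90 (Hsp90b1, or GRP94), J-proteins and disulfide isomerases, which the unfolded protein response raises together. Mitochondria fold imported proteins with Hspa9 and the Hspd1-Hspe1 chaperonin.

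Every value below is a log2 ratio that is read as smoke over control. This direction is likely only: smoke is named first and sits in channel 1 on all 6 arrays, but no source states the numerator, the dyes, or whether the 2 dye-reversed arrays were turned before deposit. Signs are given as deposited. Ratios hold no expression level, so neither the abundance of a chaperone nor the endothelial identity of the cells could be checked, and fewer cells of a type cannot be told apart from less RNA per cell. Across the 11138 named genes, which are not independent replicates, pairs of arrays correlated between r = -0.0482 and r = 0.272, and the highest value was that of the 2 dye reversals with each other. The replicate spots of 47 of the 74 members (63.5%) lay within 1 log2 unit of each other on all 6 arrays, as did those of 5625 named genes (50.5%), and these are called genes with agreeing spots. A value at a fold of exactly 1.00 made up 41 of the 984 spot values of members, and 18 members had at least 1.

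The chaperones as a class did not move one way, and no member passed at either exposure time. Of the 74 members, 36 had a positive mean at 6 weeks and 40 at 1 week, where 48.9% of named genes were positive at each time. Hspa1a, the inducible cytosolic HSP70, was positive on all 6 arrays with a mean of 0.86 ± 0.18 over both times, and Bag1, which releases substrate from HSP70, was negative on all 6 at -0.30 ± 0.12 (SE of the pooled fit, n = 5 replicates). Dnajb4, a partner of cytosolic HSP70, was also positive on all 6 arrays, with 0.85 ± 0.19 at 6 weeks and 0.34 ± 0.16 at 1 week. In the reticulum, Dnajb9, a J-protein that helps clear misfolded proteins and binds Hspa5, stood at -0.16 ± 0.26 at 6 weeks and at 0.88 ± 0.21 at 1 week.

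The test was limma with a mean for each time, 2 replicates at 6 weeks (the 6-week array against 1-week control averaged with its dye reversal, and the array against 6-week control) and 3 at 1 week. Benjamini-Hochberg adjustment ran over 19242 tests, the named genes and 8104 unnamed features. At an adjusted p under 0.05, 0 of 74 members passed at 6 weeks, 0 at 1 week, 0 for the mean of both times and 0 for 6 weeks minus 1 week, and 0% of all tests passed in each of these comparisons. Robust limma also called 0 members. At an unadjusted p under 0.05 there were 4 members at 6 weeks against 4.12% of all tests, 6 at 1 week against 6.65%, 6 for the mean of both times against 6.31%, and 1 for 6 weeks minus 1 week against 3.55%. As shares of the 74 members these are 5.41%, 8.11%, 8.11% and 1.35%, close to or below the background. Among the 47 members with agreeing spots, fitted with all such genes, 0 passed at 6 weeks (0.213% of those genes), 0 at 1 week (1.81%), 0 for the mean of both (1.83%) and 0 for the difference (0%). The nearest was Dnajb9 at 1 week, with an adjusted p of 0.0557 in that fit.

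Ratios of cell type markers were read beside these counts, for the mean of both times. Of 11 endothelial markers 7 were negative, with a median of -0.25, and Cldn5, a tight junction protein, had a mean of -0.79 (adjusted p = 0.0225 among agreeing spots). Beside Cldn5, the negative ones were Eng at -0.49, Egfl7 at -0.47, Emcn at -0.35, Kdr at -0.31, Icam2 at -0.25 and Esam at -0.12. The remaining 4 were positive, with Tek at 0.38, Cdh5 at 0.35, Pecam1 at 0.30 and Tie1 at 0.05. Among these 4, only Tek had agreeing spots. Of 4 smooth muscle and pericyte markers 3 were positive, with a median of 0.10. Acta2, smooth muscle actin, was at 0.80 (adjusted p = 0.0364 among agreeing spots), beside 0.19 for Myh11, 0.0027 for Tagln and -0.13 for Pdgfrb. Negative means were found in 2 of 4 leukocyte, 3 of 5 fibroblast, 1 of 3 adipocyte and 2 of 4 epithelial markers, and none of these passed in limma over all tests or among agreeing spots. The leukocyte marker Lyz2 was at -0.58 (unadjusted p = 0.00547 in limma), with spots that did not agree. Dcn, a fibroblast marker, was at -0.34 (unadjusted p = 0.0455 in limma). The part of other cells in the chaperone ratios was not tested.

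**Figure D1:**
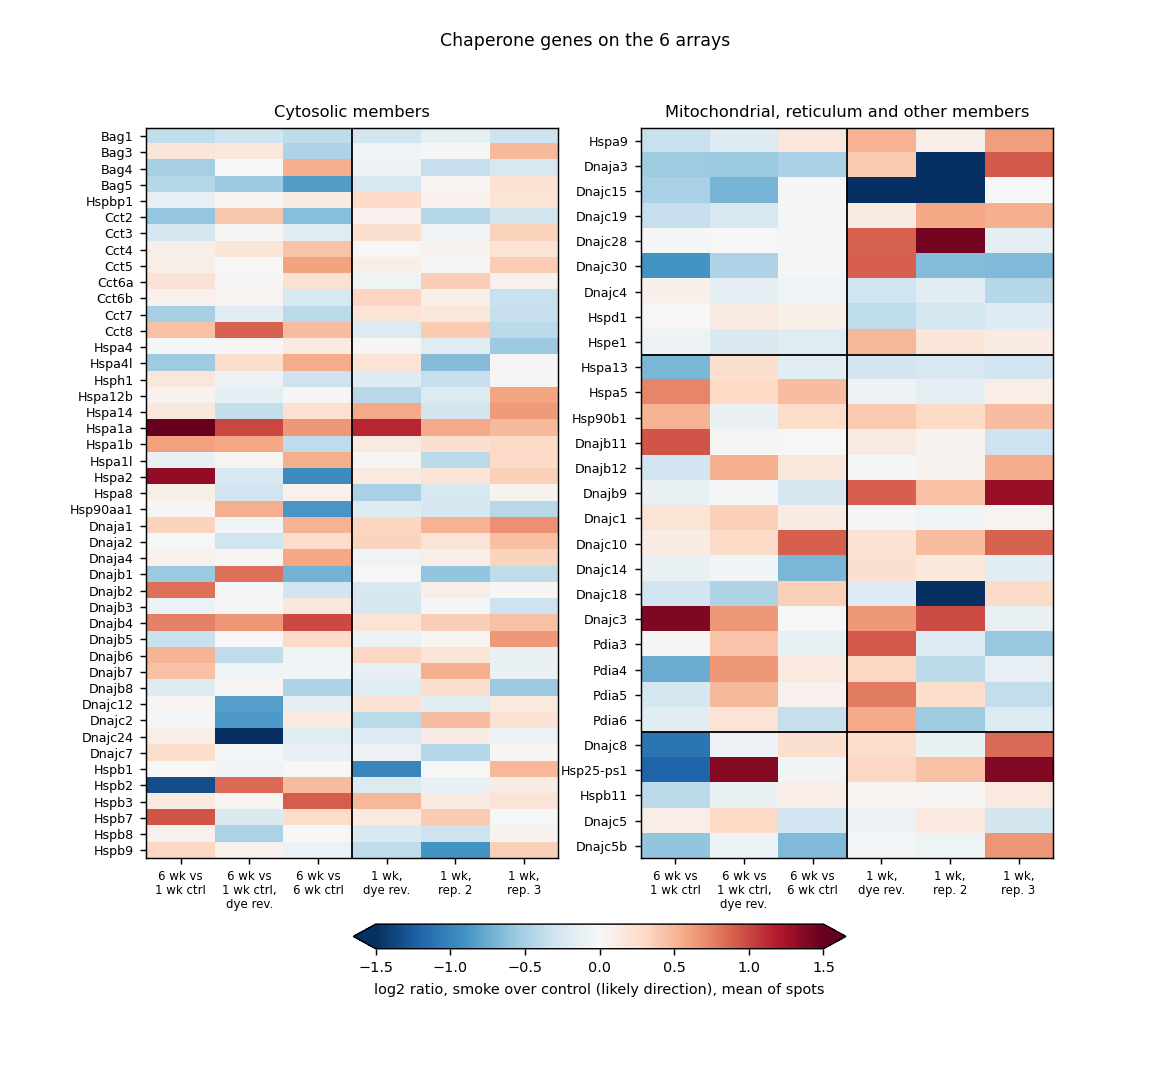
Log2 ratio of smoke over control (likely direction, mean over the spots of a gene) for the 74 chaperone genes on each of the 6 arrays, 6-week arrays left of the vertical line and 1-week arrays right of it; the colour scale saturates at the limits of its key. Hspa1a and Dnajb4 are positive and Bag1 is negative in every column, while most rows hold both signs.

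The medians by compartment differed little from 0. At 6 weeks the median log2 ratio was 0.05 for cytosolic, -0.16 for mitochondrial and 0.09 for reticulum members, beside -0.01 for all named genes. At 1 week it was 0.01 for cytosolic, -0.14 for mitochondrial and 0.05 for reticulum members, again beside -0.01 for all named genes. The replicate medians at 1 week had an SD of 0.0846, 0.281 and 0.174 in these 3 compartments (n = 3), larger than each median. At 6 weeks, where only 2 replicates exist, the SDs were 0.0126, 0.165 and 0.0389. The cytosolic replicate medians were 0.0034 and 0.0213, both below the median of 0.05 over gene means, so this SD is not the spread of that median. The reticulum SD was taken after the dye swap was averaged, and the medians of its arrays were -0.11 and 0.29.

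Mitochondrial members had a negative mean in 8 of 9 genes at 6 weeks, with array medians of -0.33 against 1-week control, -0.21 on its dye reversal and -0.03 against 6-week control. With the 6-week dye reversal turned, 5 of the 9 were negative and the median was -0.02, against 8 and -0.16 as deposited. It was -0.03 without the averaged dye swap and -0.05 among the 4 mitochondrial members with agreeing spots. At 1 week the medians were 0.39 on the dye reversal, -0.16 on replicate 2 and 0.00 on replicate 3, so the arrays fell on both sides of 0. Without 1-week replicate 2 the 1-week median was 0.31. Reticulum members had medians of -0.11 on the 6-week array against 1-week control, 0.29 on its dye reversal and 0.07 against 6-week control. At 1 week these were 0.24 on the dye reversal, 0.05 on replicate 2 and -0.11 on replicate 3. The 2 dye-reversed arrays thus held the highest reticulum medians. With the 6-week dye reversal turned, the 6-week reticulum median was -0.12. Cytosolic medians lay between -0.05 and 0.12 on all 6 arrays.

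**Figure D2:**
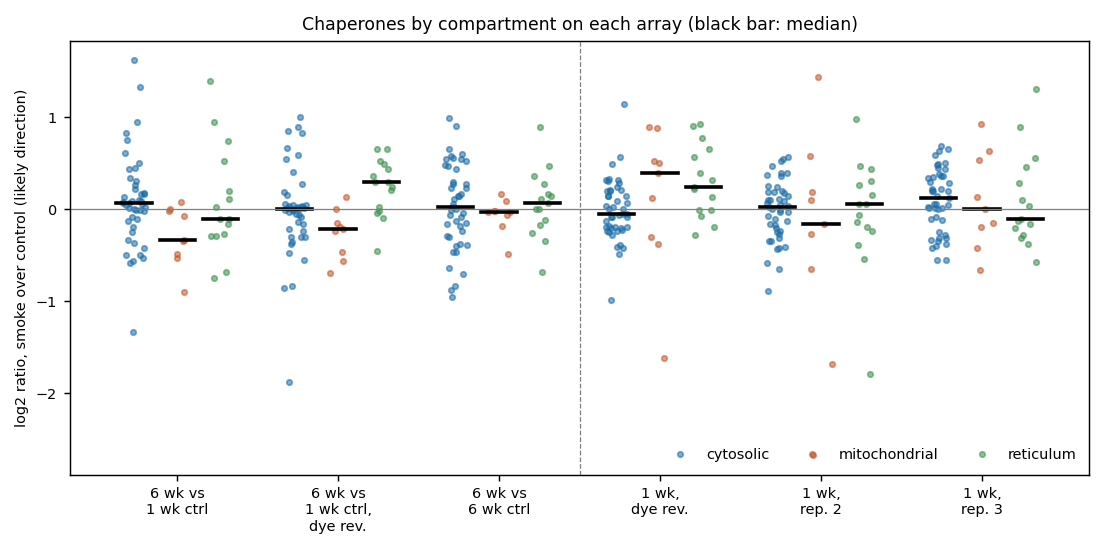
Log2 ratio (likely smoke over control) of each cytosolic, mitochondrial and reticulum chaperone gene on each array, 6-week arrays left of the dashed line and 1-week arrays right of it; black bars are medians. Cytosolic medians stay near 0, mitochondrial medians run from -0.33 to 0.39, and reticulum medians are highest on the 2 dye reversals, at 0.29 and 0.24.

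Among the cytosolic HSP70 genes the 2 stress-inducible copies, Hspa1a and Hspa1b, had unlike ratios. Both lie on chromosome 17 and encode nearly the same protein. The 250 bases before their starts (RefSeq, GRCm38.p6, chr17:34972157-34972406 for Hspa1a and chr17:34959239-34959488 for Hspa1b, minus strand) are shown because they are the regulatory sequence of the gene with the smallest p of all members. Capitals mark the fixed letters of a match to GAANNTTC, a pair of heat shock factor half-sites.
Hspa1a: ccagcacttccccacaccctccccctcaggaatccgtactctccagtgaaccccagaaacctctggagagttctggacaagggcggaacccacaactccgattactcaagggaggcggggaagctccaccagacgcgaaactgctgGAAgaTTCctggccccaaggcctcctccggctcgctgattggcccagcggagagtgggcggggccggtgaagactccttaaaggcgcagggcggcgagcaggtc
Hspa1b: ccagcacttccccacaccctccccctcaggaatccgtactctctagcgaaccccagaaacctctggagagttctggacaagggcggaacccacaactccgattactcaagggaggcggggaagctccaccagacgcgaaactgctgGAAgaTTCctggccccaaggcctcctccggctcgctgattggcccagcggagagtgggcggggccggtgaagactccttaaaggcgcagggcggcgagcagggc
The windows were identical at 247 of 250 bases (98.8%), and the match began 104 bases before the start in each.

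Hspa1a had log2 ratios of 1.61, 1.00 and 0.65 at 6 weeks (against 1-week control, its dye reversal, against 6-week control) and of 1.14, 0.57 and 0.49 at 1 week (dye reversal, replicates 2 and 3). All 6 arrays were positive and the times overlapped. The mean was 0.98 ± 0.27 at 6 weeks (unadjusted p = 0.0134) and 0.73 ± 0.22 at 1 week (unadjusted p = 0.0191), and the mean of both had an unadjusted p of 0.00368 and an adjusted p of 0.542. Its 2 spots gave 12 positive values of 12, but differed by 1.19 on the 6-week array against 6-week control, where they read 0.06 and 1.25. With both dye reversals turned the 1-week mean was -0.03, while the 4 arrays without reversal gave 1.13 at 6 weeks and 0.53 at 1 week.

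Hspa1b had 0.62, 0.58 and -0.38 at 6 weeks and 0.14, 0.25 and 0.30 at 1 week, in the same order of arrays. It was positive on 5 arrays and negative on the one against 6-week control, where all 4 of its spots lay between -0.50 and -0.29. Its means were 0.11 ± 0.28 at 6 weeks and 0.23 ± 0.23 at 1 week (adjusted p = 1 and 0.798). Because the 2 transcripts are nearly identical, spots of either gene may bind both, and how the signal divides between them is uncertain here.

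Constitutive Hspa8, the most general cytosolic HSP70, had 0.08, -0.30 and 0.06 at 6 weeks and -0.49, -0.24 and 0.05 at 1 week. Its spots agreed to within 0.18, and the arrays straddled 0 at both times. The other cytosolic HSP70 relatives had means from -0.20 to 0.26 at 6 weeks and from -0.03 to 0.31 at 1 week. The widest span among them was that of Hspa2, a testis-enriched HSP70, at 1.33 on the 6-week array against 1-week control, -0.24 on its dye reversal and -0.95 against 6-week control.

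Hsp90aa1, the stress-inducible cytosolic HSP90, had 0.01, 0.55 and -0.88 at 6 weeks and -0.19, -0.25 and -0.42 at 1 week. All 1-week arrays were negative, and the mean there was -0.29 ± 0.25 with an adjusted p of 0.777. Its 2 spots read -1.63 and -0.12 against 6-week control. The HSP110 exchange factors Hspa4, Hspa4l and Hsph1 had 1-week means of -0.23, -0.15 and -0.18, with unadjusted p-values from 0.237 to 0.572.

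J-proteins formed the largest cytosolic family, with 15 members, of which 8 were positive at 6 weeks and 9 at 1 week. Dnajb4 had 0.75, 0.67 and 0.99 at 6 weeks and 0.21, 0.37 and 0.44 at 1 week. As means over its 4 spots, all 6-week arrays lay above all 1-week arrays. The 6-week mean of 0.85 ± 0.19 had the smallest 6-week p of all members (unadjusted p = 0.00556, adjusted p = 0.96), the 1-week mean was 0.34 ± 0.16, and the difference of 0.51 ± 0.25 had an unadjusted p of 0.0881. Its 4 spots came from 2 cDNA sequences that read differently on the 6-week array against 1-week control, where 1 sequence read 1.26 and 1.12 and the other -0.01 and 0.64. The times overlapped for this other sequence. It read 0.86 and 0.74 on 1-week replicate 3, higher than on that 6-week array and than on its dye reversal (0.30 and 0.43).

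Dnaja1, which serves HSP70 in refolding and import, had 0.34, -0.04 and 0.52 at 6 weeks and 0.32, 0.52 and 0.69 at 1 week. It was positive on 5 arrays, with a 1-week mean of 0.51 ± 0.17 (unadjusted p = 0.0266, adjusted p = 0.721). Dnajb1, the classic heat-inducible HSP40, had -0.56, 0.82 and -0.71 at 6 weeks and 0.01, -0.59 and -0.38 at 1 week. Its only positive arrays were the 2 dye reversals, and its means were -0.29 ± 0.28 and -0.32 ± 0.23 at the 2 times.

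Of the 4 BAG factors and the exchange factor Hspbp1, 3 of 5 had a negative mean at 6 weeks (Bag1, Bag3 and Bag5). Bag1 had -0.37, -0.30 and -0.38 at 6 weeks and -0.28, -0.13 and -0.32 at 1 week. All 12 spot values were negative, and its spots differed by at most 0.25. The mean of both times had an unadjusted p of 0.0453 and an adjusted p of 0.781. Bag5, which exchanges nucleotide on HSP70, had -0.43, -0.55 and -0.84 at 6 weeks and -0.24, 0.03 and 0.22 at 1 week. All 6-week values lay below all 1-week values, and the difference was -0.66 ± 0.28 (unadjusted p = 0.0577, adjusted p = 0.952). Bag3, which works with small HSPs in selective autophagy, had both signs at each time.

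Small HSPs hold unfolded proteins without ATP. Hspb1, the best known of them in endothelium, could hardly be read: 7 of its 12 spot values stood at a fold of exactly 1.00. Its array means were 0.00, -0.06 and 0.00 at 6 weeks and -0.99, 0.00 and 0.50 at 1 week. Hspb3, a small HSP of muscle, had 0.14, 0.04 and 0.91 at 6 weeks and 0.50, 0.14 and 0.20 at 1 week. It was positive on all 6 arrays, with a mean of 0.39 ± 0.17 over both times (unadjusted p = 0.0652, adjusted p = 0.821). In all, 4 members were positive on every array (5.41%, with 3.24% of named genes), namely Hspa1a, Dnajb4, Hspb3 and Dnajc10, and 1 member, Bag1, was negative on every array (1.35%, with 3.43% of named genes).

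The 8 Cct genes found by the symbol rule, of the TRiC chaperonin that folds actin and tubulin, all had agreeing spots. Of these, 4 were positive at 6 weeks and 6 at 1 week, with medians of 0.04 and 0.05. Cct8 had the highest 6-week mean, 0.57 ± 0.25 (unadjusted p = 0.0696), and -0.07 ± 0.20 at 1 week, while Cct2 had -0.36 ± 0.24 and -0.21 ± 0.19. Tcp1, a TRiC subunit outside the symbol rule, had 0.47 ± 0.23 at 6 weeks and -0.26 ± 0.19 at 1 week, and its spots did not agree. Subunits of TRiC therefore stood on both sides of 0.

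**Figure D3:**
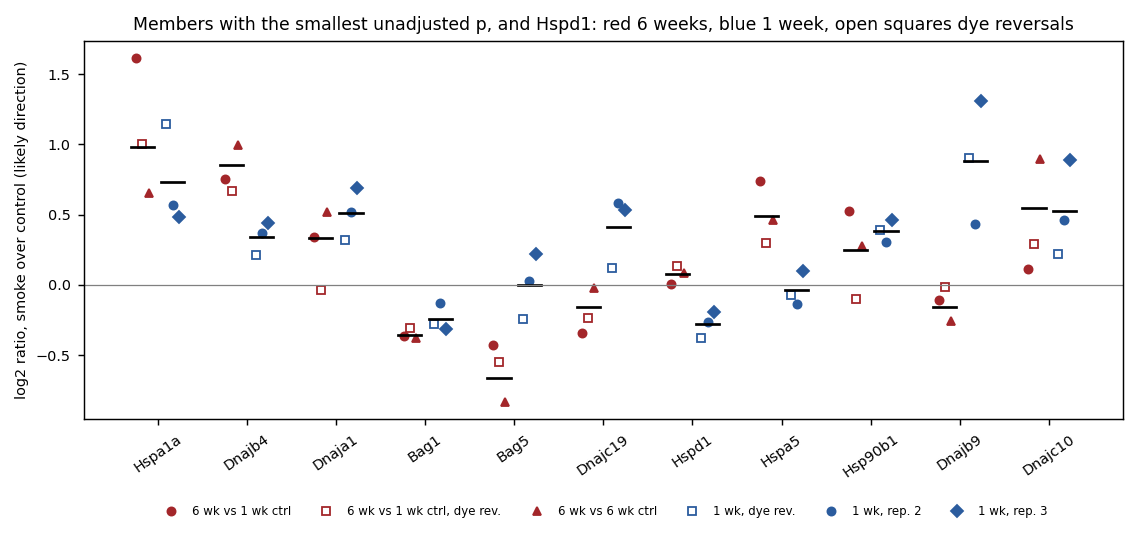
Log2 ratio (likely smoke over control) on each array for selected members with a small unadjusted p in their compartment, Hspd1 among them. Dnajc15 and Hsp25-ps1, each with an unadjusted p under 0.05 in limma at 1 week, are not shown. The 6-week arrays are in red left of the 1-week arrays in blue, open squares are dye reversals and bars are means over the replicates. Hspa1a, Dnajb4 and Dnajc10 lie above 0 and Bag1 below 0 on all arrays, and Dnajb9 is below 0 at 6 weeks and between 0.44 and 1.31 at 1 week.

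In the mitochondria, Hspd1 and Hspe1 encode the barrel and the lid of 1 chaperonin and share a bidirectional promoter on chromosome 1. Their 300-base windows in the RefSeq table overlap by 285 bases. The 250 bases before the Hspd1 start (chr1:55087933-55088182, minus strand, GRCm38.p6) are shown because both genes read from them. Capitals mark 2 overlapping matches to GAANNTTCNNGAA, 1 on each strand.
Hspd1: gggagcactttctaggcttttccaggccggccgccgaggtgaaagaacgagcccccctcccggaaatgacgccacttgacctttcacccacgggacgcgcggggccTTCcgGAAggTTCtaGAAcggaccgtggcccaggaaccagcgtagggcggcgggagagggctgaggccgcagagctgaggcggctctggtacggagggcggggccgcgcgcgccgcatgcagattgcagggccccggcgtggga
This triple element was present in the windows of 4 members, Dnajb6, Hspd1, Hspe1 and Hsph1, and in 0.603% of all 32851 windows. The matches of Hspd1 and Hspe1 are the same bases, in the part their windows share.

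The pair had opposite signs at each time. Hspd1 had 0.01, 0.14 and 0.09 at 6 weeks and -0.38, -0.27 and -0.20 at 1 week, above 0 on every 6-week array and below 0 on every 1-week array. Hspe1 had -0.07, -0.21 and -0.18 at 6 weeks and 0.50, 0.18 and 0.13 at 1 week, the reverse on every array. The differences between times were 0.36 ± 0.23 for Hspd1 (unadjusted p = 0.174) and -0.43 ± 0.25 for Hspe1 (unadjusted p = 0.141), each with an adjusted p of 0.952. The Hspd1 spots differed by at most 0.23. They had opposite signs on the 6-week arrays against 1-week control (0.06 and -0.04) and against 6-week control (-0.03 and 0.20). Those of Hspe1 differed by 1.03 on the 1-week dye reversal, where they read -0.01 and 1.01. With both dye reversals turned, the 1-week means were -0.03 for Hspd1 and -0.06 for Hspe1.

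**Figure D4:**
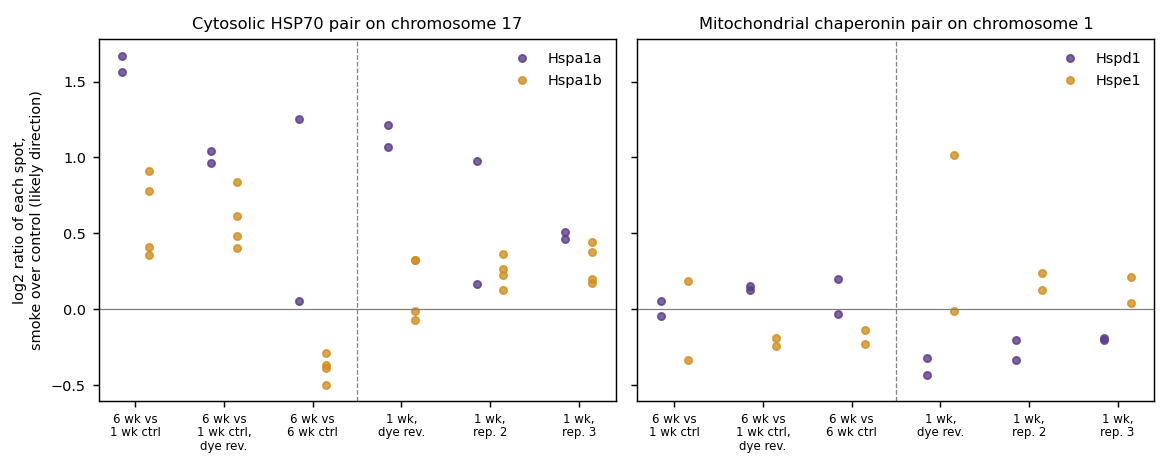
Log2 ratio (likely smoke over control) of each spot of Hspa1a and Hspa1b (left) and of Hspd1 and Hspe1 (right) on each array, 6-week arrays left of the dashed line and 1-week arrays right of it. The Hspa1b spots lie between -0.50 and -0.29 on the array against 6-week control, where the Hspa1a spots read 0.06 and 1.25, and both Hspd1 spots are below 0 on all 1-week arrays.

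Hspa9, the mitochondrial HSP70 that drives protein import, had -0.33, -0.19 and 0.17 at 6 weeks and 0.52, 0.10 and 0.63 at 1 week. It was positive on every 1-week array, with a mean of 0.42 ± 0.19 (unadjusted p = 0.0739, adjusted p = 0.747). Dnajc19, the J-protein of the import motor, had -0.34, -0.23 and -0.02 at 6 weeks and 0.12, 0.58 and 0.53 at 1 week, with no overlap between the times. Its difference was -0.57 ± 0.28 (unadjusted p = 0.0903, adjusted p = 0.952). With Dnajb9 of the reticulum, Hspd1, Hspe1 and Dnajc19 made 4 members (5.41%) with 1 sign on every 6-week array and the other on every 1-week array, as had 2.66% of named genes. Dnajc4 had 0.08, -0.15 and -0.06 at 6 weeks and was negative on all 1-week arrays, at -0.30, -0.16 and -0.43.

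The spots of the other mitochondrial J-proteins did not agree to within 1 log2 unit. Dnajc15, a second J-protein of the import motor, had -0.48, -0.69 and -0.03 at 6 weeks and -1.61, -1.69 and 0.00 at 1 week. Its 1-week mean of -1.10 ± 0.38 had an unadjusted p of 0.0302. Of its 2 spots, 1 read -3.16 and -2.96 on the dye reversal and replicate 2, where the other read -0.07 and -0.41. Dnajc28 had -0.02, 0.00 and -0.03 at 6 weeks and 0.89, 1.44 and -0.15 at 1 week. Both of its spots were positive on the dye reversal (0.49 and 1.29) and on replicate 2 (0.97 and 1.90), and 4 of its 12 spot values were at a fold of exactly 1.00. Dnaja3 had a spot at -4.77 on 1-week replicate 2, with the other at -0.57.

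In the reticulum the windows of Hspa5 and Hsp90b1 carry the element through which the unfolded protein response acts. The 250 bases before each start are shown because these are the 2 main targets of that response (GRCm38.p6, chr2:34771840-34772089, plus strand, and chr10:86705445-86705694, minus strand). Capitals mark the fixed letters of the reticulum stress element, CCAAT and CCACG with 9 bases between them, searched on both strands.
Hspa5: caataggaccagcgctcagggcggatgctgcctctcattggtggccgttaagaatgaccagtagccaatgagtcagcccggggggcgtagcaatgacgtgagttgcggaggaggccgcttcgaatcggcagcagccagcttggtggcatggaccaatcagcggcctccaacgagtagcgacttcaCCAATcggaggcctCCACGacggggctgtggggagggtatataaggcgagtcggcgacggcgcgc
Hsp90b1: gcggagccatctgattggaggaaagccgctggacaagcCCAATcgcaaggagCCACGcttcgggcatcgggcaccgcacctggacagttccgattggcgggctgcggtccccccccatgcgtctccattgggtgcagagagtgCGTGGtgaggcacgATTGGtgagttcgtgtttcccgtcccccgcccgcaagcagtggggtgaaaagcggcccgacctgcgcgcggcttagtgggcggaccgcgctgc
This element was found in the windows of 4 of 13 reticulum members with a window (Dnajc3, Hsp90b1, Hspa5 and Pdia6), of 0 of 38 cytosolic members, and in 0.119% of all windows. The pair GAANNTTC was found in 13 of the 60 members with a window, 11 of them cytosolic, and in 7.86% of all windows. The opposite order, TTCNNGAA, was found in 8 members and in 8.52% of all windows. Members are counted by gene over all their windows (77 windows for 60 members), so these counts are not on the same basis as the shares of windows. A match describes the letters only.

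Hspa5 had 0.74, 0.30 and 0.46 at 6 weeks and -0.08, -0.14 and 0.10 at 1 week. All 6-week arrays lay above all 1-week arrays. The 6-week mean was 0.49 ± 0.18 (unadjusted p = 0.0395, adjusted p = 1), the 1-week mean -0.04 ± 0.15, and the difference 0.53 ± 0.23 (unadjusted p = 0.0695, adjusted p = 0.952). Its 2 spots read -0.20 and 1.13 on the array against 6-week control. Hsp90b1 had 0.53, -0.10 and 0.28 at 6 weeks and 0.39, 0.30 and 0.46 at 1 week. It was positive on 5 arrays with spots within 0.28, and its 1-week mean was 0.38 ± 0.14 (unadjusted p = 0.0422, adjusted p = 0.739).

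Hspa13, an HSP70 without a substrate domain, read -0.68, 0.24 and -0.17 at 6 weeks and was negative on all 1-week arrays, at -0.28, -0.24 and -0.29. Of these 3 genes only Hspa5 had every 6-week array above every 1-week array.

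Of the reticulum J-proteins, Dnajb9 had the widest difference between the times. It had -0.11, -0.01 and -0.26 at 6 weeks and 0.90, 0.44 and 1.31 at 1 week. Every 1-week array lay above every 6-week array, and the spots agreed to within 0.81. The 1-week mean of 0.88 ± 0.21 had an unadjusted p of 0.00749 and an adjusted p of 0.589 over all tests. The difference of -1.04 ± 0.33 was the only one of the 74 with an unadjusted p under 0.05 (unadjusted p = 0.0242, adjusted p = 0.952). This count was 3 without 1-week replicate 2 and 3 without 1-week replicate 3, and 0 with both dye reversals turned, where the 1-week mean of Dnajb9 was 0.28.

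Dnajc10, a J-protein that also reduces disulfides, had 0.11, 0.29 and 0.89 at 6 weeks and 0.22, 0.46 and 0.89 at 1 week. All 12 of its spot values were positive, and the times overlapped. Its mean of both was 0.54 ± 0.18 (unadjusted p = 0.0256, adjusted p = 0.703), and turning both dye reversals left 0.40 at 6 weeks and 0.38 at 1 week. Dnajc3, an inhibitor of the kinase PERK, had 1.40, 0.65 and 0.00 at 6 weeks and 0.65, 0.98 and -0.11 at 1 week. Its spots could not be reconciled, at -1.09 and 3.88 on the 6-week array against 1-week control, and 5 of its 12 values stood at a fold of exactly 1.00.

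Protein disulfide isomerases form and reshuffle disulfide bonds in secreted proteins. The 4 found by the symbol rule were each higher on both dye reversals than on every other array. Pdia3 had 0.43 and 0.92 on the 6-week and 1-week dye reversals, and 0.02, -0.12, -0.19 and -0.57 on the other arrays. Pdia4 had 0.65 and 0.31 on the dye reversals, and -0.74, 0.15, -0.39 and -0.13 on the others. Pdia5 had 0.49 and 0.77 on the dye reversals, and -0.27, 0.07, 0.26 and -0.37 on the others. In all 3 the lower dye reversal exceeded the highest other array. Pdia6 did the same, with 0.21 and 0.56 on the dye reversals and -0.16, -0.35, -0.54 and -0.20 on the others. These genes were picked for full values after their values were seen, and all 4 have agreeing spots. P4hb, an isomerase outside the symbol rule that also has agreeing spots, did not share this split. It had -0.07 and 0.17 on the 6-week and 1-week dye reversals, and 0.29, 0.16, 0.42 and 0.38 on the others.

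Dye orientation was fitted as a term in limma on all 6 arrays, so the 2 arrays of the 6-week dye swap counted as separate replicates there. Dye-reversed minus unreversed means were 0.89 ± 0.31, 0.76 ± 0.34, 0.71 ± 0.30 and 0.70 ± 0.27 for Pdia3, Pdia4, Pdia5 and Pdia6 (unadjusted p = 0.0303, 0.073, 0.0598 and 0.0435, adjusted p = 0.799 each). Such a split was found in 6 of the 74 members (8.11%, with 10.2% of named genes), the other two being Dnajb1 and Cct2. The opposite split was found in 7 members (9.46%, with 9.3% of named genes), all of them cytosolic. For dye orientation 0 members passed after adjustment (0% of all tests), and 5 had an unadjusted p under 0.05 (6.76%, with 5.87% of all tests). The median of Pdia3 to Pdia6 was 0.05 at 6 weeks and -0.0033 at 1 week as deposited, and -0.21 and -0.37 with both dye reversals turned.

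**Figure D5:**
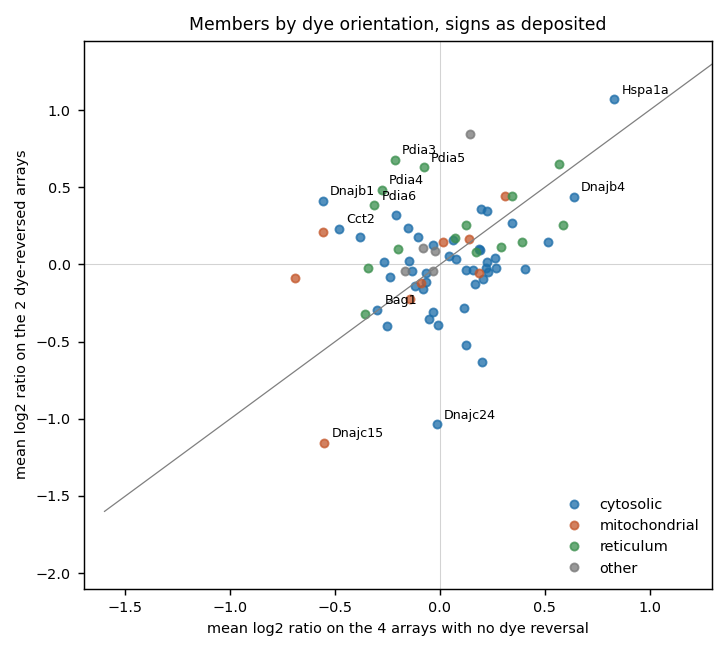
Mean log2 ratio of each chaperone gene on the 2 dye-reversed arrays (vertical axis) against its mean on the 4 arrays with no dye reversal (horizontal axis), coloured by compartment; the line marks equal values. Pdia3, Pdia4, Pdia5, Pdia6, Dnajb1 and Cct2 lie in the upper left, positive on the dye reversals and negative on the other arrays, while Hspa1a and Dnajb4 are positive and Bag1 negative on both axes.

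Of the remaining 5 members, 4 had a negative mean at 6 weeks and 4 a positive mean at 1 week. Hsp25-ps1, a pseudogene of Hspb1, had -1.20, 1.37 and -0.04 at 6 weeks and 0.31, 0.44 and 1.39 at 1 week, with spots up to 1.72 apart. Its 1-week mean was 0.71 ± 0.25 (unadjusted p = 0.0337, adjusted p = 0.739). Its spots may also bind Hspb1 RNA. Dnajc8, a spliceosome-associated J-protein, Dnajc5 and Dnajc5b, which act on vesicles, and Hspb11, a cilium component, had unadjusted p-values above 0.05 at both times.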

How the data were processed

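Each array gave 1 value per feature for 32448 features. The deposited values are log2 ratios of the 2 channels, per the labels; at least 99.99% of them on each array equal log2 of a fold in whole hundredths, within 0.02 of a hundredth, and they have a median near 0 (3e-07) on every array. The authors' scanner, background correction, normalization, filter and dyes are not given in the sources used here. No intensities were used, signal over background is therefore unknown, and precision is limited by the number of arrays.

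A probe table gave 24344 features 1 symbol, 98 several, and 8006 none. Spots of a symbol were averaged, each array was centred on its median, and all 74 members matched RefSeq (GRCm38.p6) by Entrez identifier with unchanged symbols. Promoter windows (250 bases before to 50 after a start) are from the RefSeq table and cover 60 members. With limma 3.58.1 in R 4.3.3 (lmFit, eBayes), 5 replicates were fitted with a mean per exposure time, leaving 3 residual degrees of freedom beside 2.39 prior ones. Tests were two-sided, with a threshold of 0.05 after Benjamini-Hochberg adjustment over 19242 tests. Compartment medians have no test. The code was tested on simulated data.

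An earlier treatment of these data turned the 6-week dye reversal on a correlation close to 0 (r = -0.0302 with its partner over named genes, 0.0454 over those with agreeing spots). Signs are kept as deposited here, and turning is an alternative. The members, gene lists and tests were chosen with earlier results of these data known. Values on every array are given for up to 6 members per compartment with the smallest unadjusted p and for Hspa5, Hspa8, Hspa1a, Hspa1b, Hsp90aa1, Hsp90b1, Hspa9, Hspd1, Hspe1, Hspb1 and Dnajb1; those of Pdia3 to Pdia6, and single values of other members, were added after seeing them. From each list of other folding genes, those that passed and up to 4 with the smallest p are named. P4hb and Tcp1, from these lists, were added after seeing the values. Alternatives changed the sign of the dye reversals, the arrays, the averaging of the dye swap, a dye term, normalization, centring, the spot summary, the spot filter, the variance model and each replicate. Treating folds of exactly 1.00 as missing, and testing only named genes, were added after seeing the data.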

Additional observations from a re-analysis of the deposited data

Results flagged for a closer look

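4 members had 1 sign on every 6-week array and the other sign on every 1-week array, as did 2.66% of named genes (296 of 11138). Dnajb9 was negative at 6 weeks and positive at 1 week, with a difference of -1.04 (unadjusted p = 0.0242 in limma, adjusted p = 0.952). Dnajc19 had the same signs and a difference of -0.57 (unadjusted p = 0.0903). Hspe1 also had them, with a difference of -0.43 (unadjusted p = 0.141), whereas Hspd1 was positive at 6 weeks and negative at 1 week with a difference of 0.36 (unadjusted p = 0.174). Of the 4, 3 are mitochondrial. The signs are those of gene means, and the spots of Dnajb9, Hspe1 and Hspd1 fell on both sides of 0 on some 6-week arrays. None of these differences passed after adjustment.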

How the results depend on the processing

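No member passed after adjustment under any setting tried; the smallest adjusted p of a member ran from 0.0557 (agreeing spots) to 0.857 (both dye reversals turned). Counts at an unadjusted p under 0.05, which were 4 at 6 weeks, 6 at 1 week, 6 for the mean and 1 for the difference, moved with several settings. With both dye reversals turned they were 2 at 6 weeks, 3 at 1 week and 0 for the difference; with only the unreversed arrays, 3 at 1 week and 0 for the difference. With the dye swap kept separate, 10 were counted for the mean and 3 for the difference. The difference had 2 with the 6-week reversal turned, with a dye term, among agreeing spots and with only named genes. With only named genes, 8 were counted at 1 week and 9 for the mean. Among the 47 members with agreeing spots, 6 were counted at 1 week and 7 for the mean. Shares of all genes under these settings are not given here. Leaving out each replicate gave 3 to 5 at 6 weeks, 4 to 5 at 1 week, 3 to 8 for the mean and 1 to 3 for the difference.

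The 6-week cytosolic median of 0.05 was 0.068 with the 6-week reversal or both turned, 0.0616 with only unreversed arrays, 0.0633 among agreeing spots, 0.0108 with the dye swap separate, 0.0138 with a dye term, 0.0336 with quantile normalization and 0.0311 with folds of exactly 1.00 missing. With each replicate left out it ran from 0.0034 to 0.0485, and was 0.0213 without the averaged 6-week dye swap. The 6-week reticulum median of 0.09 became -0.12 with the 6-week reversal or both turned, -0.0479 with only unreversed arrays and 0.19 with a dye term. The 1-week mitochondrial median ran from -0.23 to 0.31 when each replicate was left out, the highest without 1-week replicate 2. The cause of these shifts was not tested. No paired analysis was possible because the labels give no replicate numbers shared between the groups. With 3 residual degrees of freedom, and 2 with a replicate left out, a missed threshold does not show that values did not differ.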

Other observations

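Other genes of the folding machinery were read from 3 lists. Of 27 listed cytosolic co-chaperones and heat shock regulators, 24 were measured: 11 were positive and 13 negative at 6 weeks, and 14 positive and 10 negative at 1 week, with 0 passing over all tests. Among genes with agreeing spots, 2 of this list passed for the mean of both times, as did 1.83% of all such genes. Ptges3, the HSP90 co-chaperone p23, had 1.38, 0.76 and 0.62 at 6 weeks and 0.93, 0.51 and 0.84 at 1 week (mean 0.80, adjusted p = 0.024 in limma among agreeing spots). Pfdn5, a prefoldin subunit that passes actin and tubulin to TRiC, had -1.15, -0.06 and -0.74 at 6 weeks and -0.59, -0.62 and -0.47 at 1 week (mean -0.62, adjusted p = 0.0358). Each had 1 sign on all 6 arrays. The next smallest p-values of this list were those of Cdc37l1, a relative of the HSP90 co-chaperone Cdc37, with a 1-week mean of 0.91 (unadjusted p = 0.0131), and Pdcl3, a phosducin-like protein, with 0.41 (unadjusted p = 0.0434). The spots of Cdc37l1 did not agree.

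Of 27 reticulum folding and unfolded protein response genes, 22 were measured, 14 positive at 6 weeks and 10 at 1 week, and 0 passed over all tests. Manf, a secreted protein of that response, had -0.42, -0.09 and -0.50 at 6 weeks and -0.54, -0.89 and -0.97 at 1 week. Its 1-week mean of -0.80 passed in limma among agreeing spots (adjusted p = 0.0426), as did 1.81% of those genes. Over all tests its adjusted p was 0.5145. Ppp1r15a, which restores translation after stress, was positive on all 6-week arrays and negative on all 1-week arrays. Its difference was 1.51 with an adjusted p of 0.952, and its spots did not agree. Ero1b, an oxidase that recharges disulfide isomerases, had 2.14, 0.10 and 1.20 at 6 weeks and -0.48, 0.47 and 0.06 at 1 week, with a 6-week mean of 1.16 (unadjusted p = 0.00654, adjusted p = 1) and spots that did not agree. Sil1, an exchange factor of Hspa5, had a difference of -0.75 (unadjusted p = 0.0495), and its spots did not agree.

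Of 19 mitochondrial protease, import and co-chaperone genes, 17 were measured, 6 positive at 6 weeks and 11 at 1 week, and 0 passed. Timm17a, a subunit of the inner membrane translocase, had 2.19, 2.38 and 1.15 at 6 weeks and -0.53, 0.75 and 0.05 at 1 week, with a 6-week mean of 1.72 (unadjusted p = 0.00702, adjusted p = 1) and a difference of 1.63 (unadjusted p = 0.0243). Trap1, the mitochondrial HSP90, had -0.09, -1.31 and -0.60 at 6 weeks and 0.17, 0.24 and 0.15 at 1 week, with a difference of -0.84 (unadjusted p = 0.0126). The spots of Timm17a and of Trap1 did not agree. Grpel1, the exchange factor of Hspa9, had -0.66, -0.39 and -0.26 at 6 weeks and 0.42, 0.19 and 0.52 at 1 week, with a difference of -0.76 (unadjusted p = 0.0267, adjusted p = 0.952). Lonp1, a matrix protease, had a mean of -0.31 over both times (unadjusted p = 0.0487). The 3 differences thus had both signs.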
